A study of Homo sapiens with 6 samples.

Results

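The genes MX1, MX2, RSAD2, BST2, IFI6, IFI27, IFI35, IFI44, IFI44L and IFITM1 are interferon-induced antiviral effectors, and they were picked by gene symbol from the 16390 genes listed in each library. All 10 were found. The cells were SW780, a human bladder cancer line that the study treats as luminal, either left as Control or exposed to RC48 at 25 µg/ml. RC48, also called disitamab vedotin, is an antibody to the receptor ERBB2 joined to monomethyl auristatin E, which blocks microtubules. There were 3 Control and 3 RC48 libraries, no length of exposure was given for them in the sources used here, and a single cell line stands for the luminal type. Nothing in the labels says whether the replicates were separate cultures, so the p-values measure the spread between these libraries, which may be technical.

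Type I and type III interferons bind their receptors at the cell surface, and the kinases JAK1 and TYK2 then activate a complex of transcription factors that includes STAT2 and IRF9. This complex binds the interferon-stimulated response element in the promoters of many genes, the antiviral effectors among them. The effectors act at different steps of a virus's cycle, from entry (IFITM1) through replication in the cell (MX1, MX2, RSAD2) to release (BST2), and epithelial cells can make them without any virus when the pathway is switched on by other means.

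All 10 effectors had higher levels in the RC48 libraries, and 9 of them passed the test. Counts were scaled to the library size after TMM normalization, as CPM, and compared with edgeR's quasi-likelihood test. At a Benjamini-Hochberg adjusted p under 0.05, 9 rose and 0 fell, and BST2 did not pass. Over the 13055 genes tested, 2.21% were called and 1.98% were called upward. The median log2 fold change of the 10 effectors was 2.06, against 0.016 for all genes tested. IFITM1 reached the cutoff of the filter on low counts in 1 of 3 Control libraries and all 3 RC48 libraries, so it was tested only through RC48. A fit asking for at least 10 counts in every library left IFITM1 out. It called 8 effectors, with a median of 2.01, and 1.82% of all genes. For all 10 the lowest RC48 library exceeded the highest Control library in CPM, as it did for 17.4% of all genes tested. Because exact permutation of 3 against 3 libraries cannot go below p = 0.1, the exact two-sided test on log2 CPM gave 0.1 for each. In bulk RNA, a larger share of expressing cells and more RNA per cell cannot be told apart.

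The libraries held 16453233 to 17988030 estimated counts. The most alike replicates, Control replicates 1 and 2, still differed by more than sampling noise, with a chi-square of 1.47 per degree of freedom, so no library was taken for a second deposit of another. RC48 replicate 1 stood apart. Across 12510 genes, the log2 ratio to the Control mean followed the GC content of the transcripts with a Spearman rho of 0.751 in RC48 replicate 1 and 0.585 in replicate 3, against -0.0187 in replicate 2. Genes within a library are not independent replicates, so no p is given. Results that this touches are given with and without a correction that removes each library's trend of log2 CPM on GC content. The part of GC content in the results was not tested beyond this.

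The labelled cell type was checked against its markers. Of the 9 luminal markers, all were listed, and their summed level was 667 to 725 TPM, a unit scaled for gene length and library size, in Control and 613 to 666 in RC48. Of the 8 luminal markers tested, 1 was called, and 5 had a positive fold change (2 with the GC correction). FOXA1, KRT20 and UPK1B, 3 of the 8, lay below Control in every RC48 library (5 of the 8 with the GC correction). This held for 1841 of all 13055 genes tested (2072 with the GC correction). The called marker was KRT20, a luminal keratin, which fell by 1.55 on the log2 scale (adjusted p = 0.0489, edgeR). The epithelial markers EPCAM, CDH1, KRT8, KRT18 and KRT19 summed to 9704 to 10211 TPM in Control and 9429 to 10598 in RC48, with 0 of 5 called. EPCAM lay below Control in every RC48 library (log2 fold change -0.49, adjusted p = 0.199, edgeR). The basal list, of which 4 of 5 genes were listed, summed to 129 to 137 TPM in Control and 117 to 135 in RC48. The 7 of 8 listed fibroblast and endothelial markers summed to 96.5 to 119 TPM in Control and 120 to 157 in RC48, with 0 called. Of the 5 tested, 2 lay above Control in every RC48 library and 1 lay below (2 and 2 with the GC correction). The one below was PECAM1, with a log2 fold change of -0.43 (adjusted p = 0.178, edgeR). With the GC correction COL3A1 rose by 0.60 on the log2 scale (adjusted p = 0.00778, edgeR), the only call. Of 12 leukocyte markers, 9 were listed, and they summed to 6.95 to 7.31 TPM in Control and 10.5 to 14.0 in RC48. Of the 5 leukocyte markers tested, 1 was called, and 4 lay above Control in every RC48 library (3 with the GC correction). For all genes tested, 2.21% were called and 17.4% lay above Control in every RC48 library (17.5% with the GC correction). The called marker was ITGAM, with 0, 5 and 0 counts in Control and 69, 54 and 65 in RC48. CD3E had 5, 4 and 7 counts in Control and 23, 11 and 17 in RC48, and CD14 had 6, 8 and 4 in Control and 23, 14 and 12 in RC48. LAPTM5 had 99, 89 and 82 counts in Control and 131, 126 and 112 in RC48 (log2 fold change 0.44, adjusted p = 0.231, edgeR). PTPRC, the pan-leukocyte gene CD45, had 0 counts in each Control library and 1, 1 and 0 in RC48, and CSF1R had 0 in each Control library and 1, 1 and 2 in RC48. The part of these genes in the results was not tested.

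To show what the promoters of the effectors share beyond their names, the window from 250 bases before to 50 after each RefSeq start (build GRCh38.p14) was searched on both strands for the core of the interferon-stimulated response element, which is GAAA, any 2 bases and GAAA again. The table held a promoter for 9 of the 10 genes, all but MX2. A match was found in 8 of these 9 genes, against 4.38% of all 27305 genes with a promoter in the table and 3.57% of all 35116 promoters. IFI35 had no match to these letters in its window. The shorter TTCNNNGAA, a palindrome known as the gamma-activated sequence, matched in 5 of the 9 genes and in 9.38% of all genes, and in MX1, BST2, IFI27 and IFITM1 a copy lay partly over a copy of the longer motif. A match is a description of letters and no evidence of binding. For each gene with a match, the copy nearest the start is shown in capitals on the strand of the gene, 5′ to 3′; copies that begin with TTTC lie on the other strand.
MX1: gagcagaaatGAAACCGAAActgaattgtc
RSAD2: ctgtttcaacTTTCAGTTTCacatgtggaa
BST2: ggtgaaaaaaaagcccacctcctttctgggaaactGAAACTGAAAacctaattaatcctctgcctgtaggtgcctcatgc
IFI6: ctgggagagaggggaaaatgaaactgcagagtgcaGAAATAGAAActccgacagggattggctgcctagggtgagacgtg
IFI27: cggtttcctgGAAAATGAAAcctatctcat
IFI44: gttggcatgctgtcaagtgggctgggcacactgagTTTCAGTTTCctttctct
IFI44L: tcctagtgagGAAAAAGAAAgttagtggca
IFITM1: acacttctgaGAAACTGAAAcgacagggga

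These windows lie at chr21:41420559-41420588 (MX1, plus strand), chr2:6877622-6877651 (RSAD2, plus), chr19:17405710-17405789 (BST2, minus), chr1:27672241-27672320 (IFI6, minus), chr14:94110631-94110660 (IFI27, plus), chr1:78649736-78649788 (IFI44, plus), chr1:78620365-78620394 (IFI44L, plus) and chr11:314024-314053 (IFITM1, plus). The match in MX1 began 12 bases into the transcript, and the other matches began 6 (IFITM1) to 145 (RSAD2) bases before the start. BST2, the effector that did not pass the test, carried 2 overlapping copies beginning at -130 and -124 from its start. IFI35, which passed with a smaller change than the other 8, carried none.

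The level of the effectors per gene length was compared in TPM, which was taken from the authors' files for 5 libraries and computed here for RC48 replicate 2. In Control, BST2 was highest at 169 ± 10.8 TPM (SD, n = 3), followed by IFI6 at 47.7 ± 4.50, IFI35 at 36.9 ± 2.48, IFI44 at 24.0 ± 1.88, IFI27 at 22.2 ± 5.70 and MX1 at 18.8 ± 1.40. MX2 at 5.74 ± 0.369, IFITM1 at 2.58 ± 1.04, IFI44L at 0.903 ± 0.225 and RSAD2 at 0.797 ± 0.110 closed the order. The ranges of IFI44 and IFI27 overlapped, as did those of IFI27 and MX1 and those of IFI44L and RSAD2, so these neighbours could not be ordered. In RC48, BST2 stayed highest at 233 ± 15.5 TPM. IFI27 came next at 163 ± 13.4, and its range overlapped with that of IFI6 at 149 ± 12. MX1 reached 78.7 ± 1.04 TPM, and its range overlapped with that of IFI35 at 73.2 ± 9.84. IFI44 at 56.6 ± 9.10 overlapped in turn with IFI35. MX2 reached 22.2 ± 2.36, IFITM1 16.2 ± 0.727, IFI44L 5.57 ± 1.78 and RSAD2 5.11 ± 0.531 TPM, and the ranges of IFI44L and RSAD2 overlapped again. Between the groups, IFI27 passed IFI6, IFI35 and IFI44 in mean level, and MX1 passed IFI35 and IFI44. Summed over the 10 genes, the level was 308 to 344 TPM in Control and 782 to 828 TPM in RC48.

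**Figure D1:**
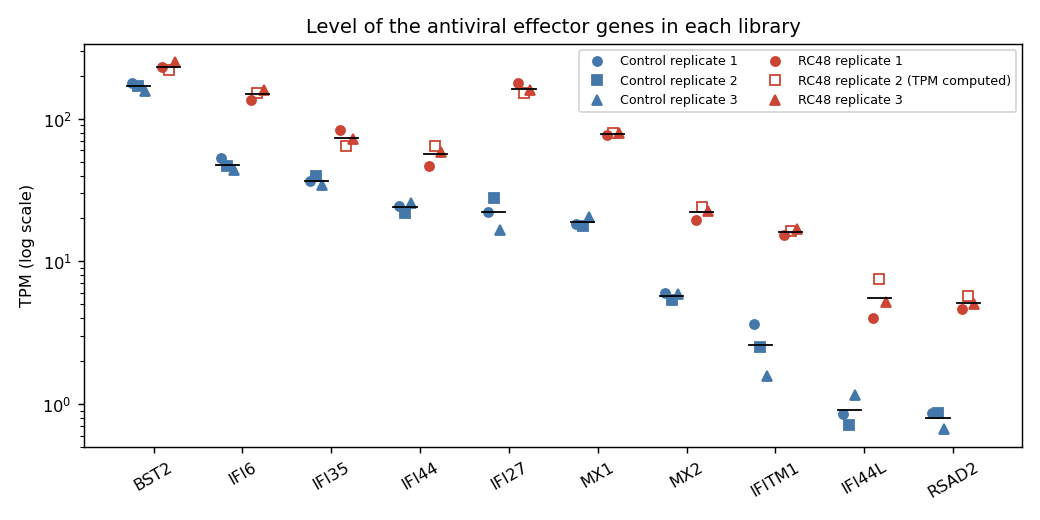
Level of each effector in TPM on a log axis, with genes ordered by their Control mean; points are libraries, black lines are group means, and the open squares are the values computed for RC48 replicate 2. Each RC48 library lies above each Control library for all 10 genes, with the narrowest gap for BST2 (highest Control 179 TPM, lowest RC48 218 TPM).

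MX1 and MX2 encode dynamin-like GTPases that trap viral components, MX1 in the cytoplasm and MX2 around the nuclear pore. MX1 (chr21:41420304-41459214, plus strand, GRCh38) had 26.7, 26.0 and 27.7 CPM in Control replicates 1, 2 and 3 and 117, 110 and 118 CPM in RC48 replicates 1, 2 and 3. The RC48 libraries lay within 1.07-fold of each other and far above Control. MX1 rose by a log2 fold change of 2.10 ± 0.12 (SE), or 4.29-fold, with an adjusted p of 0.000229 (edgeR). MX2 (chr21:41361943-41409390, plus strand) had 10.9, 9.68 and 9.77 CPM in Control and 39.1, 42.2 and 42.3 CPM in RC48. It rose 4.07-fold, by 2.02 ± 0.13 on the log2 scale (adjusted p = 0.000487, edgeR). The genes lie side by side, 10913 bases apart with 0 coding genes between, and the ratio of MX1 to MX2 counts within a library changed little. Its log2 was 1.29, 1.43 and 1.51 in Control and 1.58, 1.38 and 1.49 in RC48, a difference of 0.08 (exact permutation test, two-sided, p = 0.5), which does not show that they rose equally. In the annotation, 236 exonic bases of MX1 (2.74%) overlap an antisense gene, and whether counting used strand is not given in the sources used here.

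RSAD2 encodes viperin, a radical SAM enzyme that makes a chain-terminating nucleotide. RSAD2 (chr2:6865806-6898239, plus strand) had 27, 27 and 19 counts in Control and 152, 173 and 167 in RC48. These counts came to 1.56, 1.56 and 1.12 CPM in Control and 9.23, 9.88 and 9.30 CPM in RC48, which varied less between replicates than the Control values. RSAD2 rose 6.66-fold, by 2.74 ± 0.19 on the log2 scale (adjusted p = 0.000578, edgeR). CMPK2, a mitochondrial nucleotide kinase gene, lies head to head with RSAD2 on the other strand and shares 14 exonic bases with it. CMPK2 had 11, 10.9 and 10.4 CPM in Control and 17.9, 26.1 and 18.1 CPM in RC48. It rose by 0.94 ± 0.18 on the log2 scale (adjusted p = 0.0484, edgeR), a call near the threshold that was lost in 12 of 24 alternatives, whose adjusted p ran from 2.46e-06 to 0.268. Without Control replicate 1, 2 or 3 the adjusted p of CMPK2 was 0.247, 0.249 and 0.268, and without RC48 replicate 3 it was 0.152. The log2 ratio of RSAD2 to CMPK2 counts within a library went from -2.95 ± 0.23 (SD, n = 3) in Control to -1.10 ± 0.26 in RC48, a difference of 1.85 with no overlap (exact permutation test, p = 0.1). The ratio was higher in each RC48 library than in any Control library. This pair, the pair of MX1 and MX2 and those that follow were chosen after their values had been seen.

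IFITM1 encodes a small membrane protein that hinders the fusion of viruses with the cell. IFITM1 (chr11:313506-315272, plus strand) had 13, 9 and 5 counts in Control, near the lower limit of what these libraries resolve, and 72, 65 and 68 counts in RC48. In CPM this was 0.752, 0.522 and 0.294 against 4.37, 3.71 and 3.79. It rose 7.46-fold, by 2.90 ± 0.30 on the log2 scale (adjusted p = 0.00307, edgeR). IFITM1 passed the filter on low counts through its RC48 libraries, since 1 of 3 Control libraries reached the 0.583 CPM that the filter asks for, while the other 9 effectors reached it in all 6 libraries. With a minimum of 10 counts in every library it was not tested. IFITM1 shares 351 exonic bases, 32.5% of its own, with an IFITM2 transcript on the same strand and has near-identical relatives, so its reads may be split between them and its values are uncertain to that extent.

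Of the relatives of IFITM1, 0 of the 2 that were tested passed. IFITM2 was nearly absent, with 1, 3 and 0 counts in Control and 6, 3 and 2 in RC48, and was not tested. IFITM3, which acts on viruses in endosomes and lies 4396 bases from IFITM1, had 26.8, 28.1 and 20.7 CPM in Control and 97.1, 38.7 and 52.1 CPM in RC48. RC48 replicate 1 was 2.51 times replicate 2. IFITM3 had a log2 fold change of 1.31 ± 0.33 and did not pass (adjusted p = 0.106, edgeR). With the GC correction its value was 0.98 and passed (adjusted p = 0.0213), and without RC48 replicate 1 it was 0.84 and passed as well (adjusted p = 0.00466). Without RC48 replicate 2 it was 1.56 (adjusted p = 0.0121). In that order, these fits called 6.83%, 6.82% and 28.3% of all genes. IFITM3 passed in 11 of 24 alternatives, and its adjusted p ran from 4.98e-07 to 0.426. Its promoter, shown for comparison with that of IFITM1, holds a copy beginning 35 bases before the start (chr11:320876-320905, minus strand).
IFITM3: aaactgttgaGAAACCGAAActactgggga

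IFITM10, a more distant relative, had 59.2, 58.7 and 50.5 CPM in Control and 60.9, 39.5 and 48.9 CPM in RC48, with a log2 fold change of -0.17 (adjusted p = 0.532, edgeR). With the GC correction IFITM10 fell by 0.50 (adjusted p = 0.00910). The log2 ratio of IFITM1 to IFITM3 counts was -5.68 ± 0.49 (SD, n = 3) in Control and -3.88 ± 0.55 in RC48, a difference of 1.80 with no overlap (exact permutation test, p = 0.1). In TPM, IFITM3 remained the more abundant gene, at 150 ± 14.8 in Control and 299 ± 83.2 in RC48, against 2.58 and 16.2 TPM for IFITM1.

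BST2 encodes tetherin, which holds budding virions at the cell surface. BST2 (chr19:17402939-17405648, minus strand) had 71.9, 68.8 and 57.6 CPM in Control and 113, 84.4 and 105 CPM in RC48. The lowest RC48 library exceeded the highest Control library by a small margin, and the RC48 libraries spread 1.34-fold. The fold change was 1.53, with a log2 of 0.61 ± 0.16, and BST2 did not pass (adjusted p = 0.113, edgeR). It passed in 8 of 24 alternatives, and its adjusted p ran from 2.35e-06 to 0.412. With DESeq2 it was 0.0235, without RC48 replicate 1 it was 0.0295, and without RC48 replicate 2 it was 0.0190. In that order, these fits called 5.7%, 6.82% and 28.3% of all genes, against 2.21% in the edgeR test on all libraries without the GC correction. The alternative with the lowest adjusted p, voom with sample quality weights, called 61.4%. With the GC correction the log2 fold change of BST2 was 0.40 ± 0.10 (adjusted p = 0.0503). BST2 was the most abundant effector and the one with the smallest fold change.

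IFI6 and IFI27 encode small hydrophobic proteins of the same family, found in mitochondrial and other internal membranes. IFI6 (chr1:27666061-27672218, minus strand) had 15.3, 13.7 and 11.6 CPM in Control and 51.1, 42.6 and 49.9 CPM in RC48. IFI6 rose 3.53-fold, by 1.82 ± 0.16 on the log2 scale (adjusted p = 0.00138, edgeR). IFI27 (chr14:94104836-94116698, plus strand) had 3.87, 4.81 and 2.65 CPM in Control and 42.8, 25.5 and 30.1 CPM in RC48. It rose 8.67-fold, by 3.12 ± 0.28 on the log2 scale (adjusted p = 0.00167, edgeR), the largest change of the 10 without the GC correction. With the correction IFI27 rose by 2.88, and IFI44L, at 3.14, had the largest change. The RC48 libraries differed 1.68-fold in IFI27 but did not come near Control. Within a library, the log2 ratio of IFI6 to IFI27 counts went from 1.88 ± 0.32 (SD, n = 3) to 0.57 ± 0.28, a difference of -1.30 with no overlap (exact permutation test, p = 0.1).

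IFI27 lies between its relatives IFI27L1, 989 bases away on the same strand, and IFI27L2, 11080 bases away on the other strand. IFI27L1 had 4.11, 5.56 and 3.53 CPM in Control and 11, 3.94 and 6.01 CPM in RC48. The groups overlapped, and IFI27L1 did not pass (log2 fold change 0.66 ± 0.37, adjusted p = 0.318, edgeR). Without RC48 replicate 2 its value was 0.94 and passed (adjusted p = 0.0457, edgeR), in a fit that called 28.3% of all genes. IFI27L1 passed in 2 of 24 alternatives. IFI27L2 had 11.7, 13.9 and 9.07 CPM in Control and 47.3, 12.9 and 18.9 CPM in RC48, so that its difference rested on RC48 replicate 1. The log2 fold change of IFI27L2 was 1.19 ± 0.45 (adjusted p = 0.231, edgeR), and without RC48 replicate 1 it was 0.46 (adjusted p = 0.182). In the fit without RC48 replicate 2 it was 1.52 and passed (adjusted p = 0.0255, edgeR), where 28.3% of all genes were called. IFI27L2 passed in 5 of 24 alternatives. The log2 count ratio of IFI27 to IFI27L1 was higher in every RC48 library, going from -0.24 ± 0.17 (SD, n = 3) to 2.33 ± 0.37, and that of IFI27 to IFI27L2 from -1.63 ± 0.13 to 0.50 ± 0.58 (exact permutation test, p = 0.1 for each, the smallest possible). Neither promoter of these relatives in the table held a match to the response element.

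IFI44 and IFI44L encode related cytoplasmic proteins and lie in tandem on chromosome 1, 3650 bases apart with 0 coding genes between. IFI44 (chr1:78649796-78664078, plus strand) had 19.5, 17.7 and 18.8 CPM in Control and 42.9, 49.9 and 48.3 CPM in RC48. IFI44 rose 2.52-fold, by 1.33 ± 0.13 on the log2 scale (adjusted p = 0.00224, edgeR). IFI44L (chr1:78619922-78646145, plus strand) had 2.72, 2.26 and 3.41 CPM in Control and 13.8, 22.8 and 16.9 CPM in RC48. It rose 6.37-fold, by 2.67 ± 0.25 on the log2 scale (adjusted p = 0.00181, edgeR). Both genes were lowest in RC48 replicate 1 among the RC48 libraries, the reverse of the order in IFI27 and IFI35. The log2 ratio of IFI44L to IFI44 counts went from -2.76 ± 0.26 (SD, n = 3) to -1.43 ± 0.27, a difference of 1.33 with no overlap between groups (exact permutation test, p = 0.1). IFI44L, the lower of the neighbours in TPM, had the larger fold change.

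IFI35 encodes a leucine zipper protein that pairs with NMI. IFI35 (chr17:43006725-43014456, plus strand) had 18.6, 20.3 and 16.1 CPM in Control and 50.7, 31.4 and 38.4 CPM in RC48. The groups did not overlap, but the RC48 libraries spread 1.61-fold. IFI35 rose 2.19-fold, by 1.13 ± 0.20 on the log2 scale (adjusted p = 0.0339, edgeR), the smallest change among the 9 called. The call was kept in 20 of 24 alternatives. It was lost without Control replicate 1, 2 or 3 (adjusted p = 0.190, 0.141 and 0.220) and without RC48 replicate 3 (adjusted p = 0.141), and over all alternatives the adjusted p ran from 4.69e-08 to 0.220. With the GC correction the log2 fold change was 0.88 ± 0.10 (adjusted p = 0.00197), and it then passed with any library left out.

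**Figure D2:**
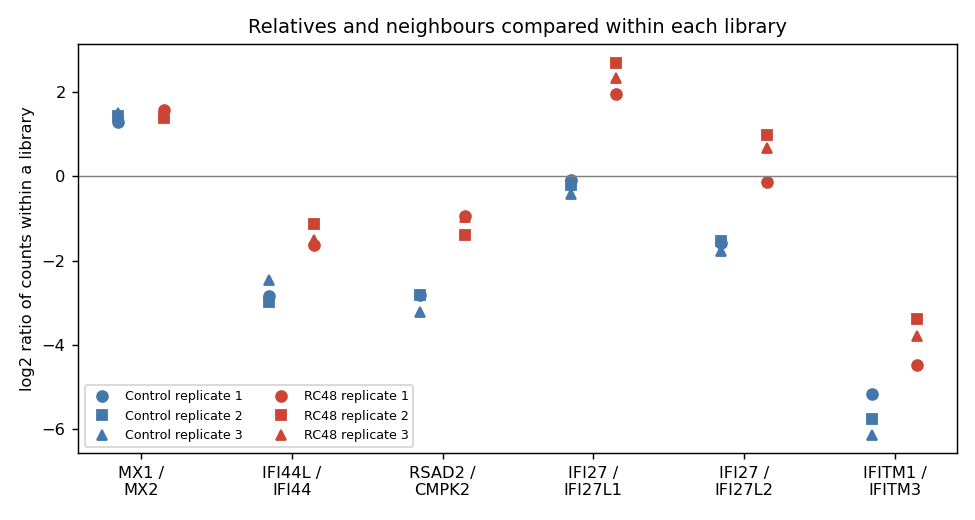
Log2 ratio of the counts of 2 related or neighbouring genes within each library, for 6 pairs; points are libraries and the grey line marks equal counts. The MX1 to MX2 ratio overlaps between Control and RC48, and the other 5 ratios are higher in all 3 RC48 libraries.

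The spread of the effectors between RC48 libraries went with the GC content of their transcripts. IFI44L and IFI44, at 37.7% and 38.9% GC, were highest in RC48 replicate 2. BST2, IFI6, IFI27, IFI35 and IFITM1, at 56.2% to 57.8% GC, were highest in RC48 replicate 1 and lowest in replicate 2. RSAD2, MX2 and MX1, at 48.9%, 49.7% and 52.0% GC, differed by 1.07-fold to 1.08-fold between the RC48 libraries. Over the 10 genes, the deviation of a library from the RC48 mean followed GC content with a Spearman rho of 0.964 in replicate 1 and -0.952 in replicate 2, against -0.248 in replicate 3. These are descriptions over 10 genes that share each library and carry no p.

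**Figure D3:**
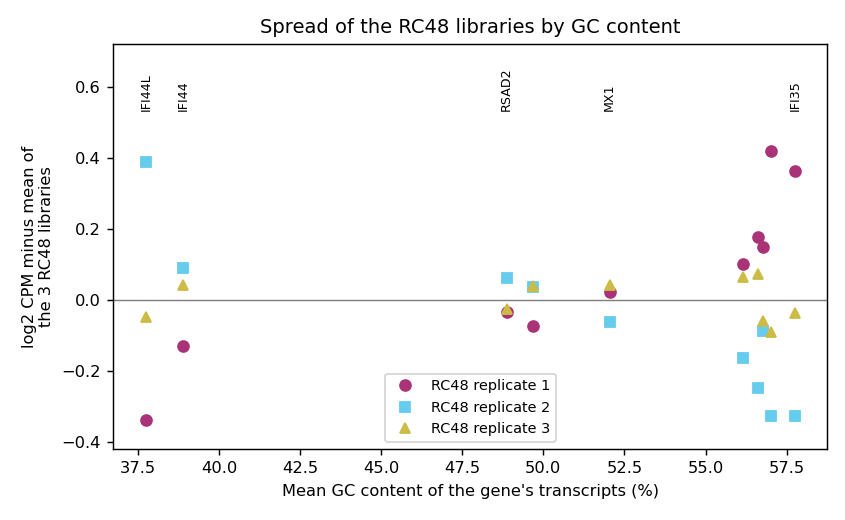
Deviation of each RC48 library from the mean log2 CPM of the 3 RC48 libraries, against the mean GC content of a gene's transcripts, for the 10 effectors. Replicates 1 and 2 swap places between the genes at 37.7% to 38.9% GC and those at 56.2% to 57.8%, and RSAD2, MX2 and MX1 lie close to 0.

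With the GC correction, the same 9 effectors were called and all 10 stayed above Control in every RC48 library, while 6.83% of all genes were called and 17.5% lay above Control. The fold change was smaller after correction for 7 genes and larger for RSAD2, IFI44 and IFI44L. IFI44L went from 2.67 to 3.14 and IFI44 from 1.33 to 1.80 on the log2 scale, and IFI27 from 3.12 to 2.88. The ratio of the highest to the lowest RC48 library fell in 8 genes, for example from 1.68 to 1.21 in IFI27 and from 1.61 to 1.13 in IFI35. It rose in MX1, from 1.07 to 1.09, and in IFI44, from 1.16 to 1.70, so the correction did not even out IFI44.

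**Figure D4:**
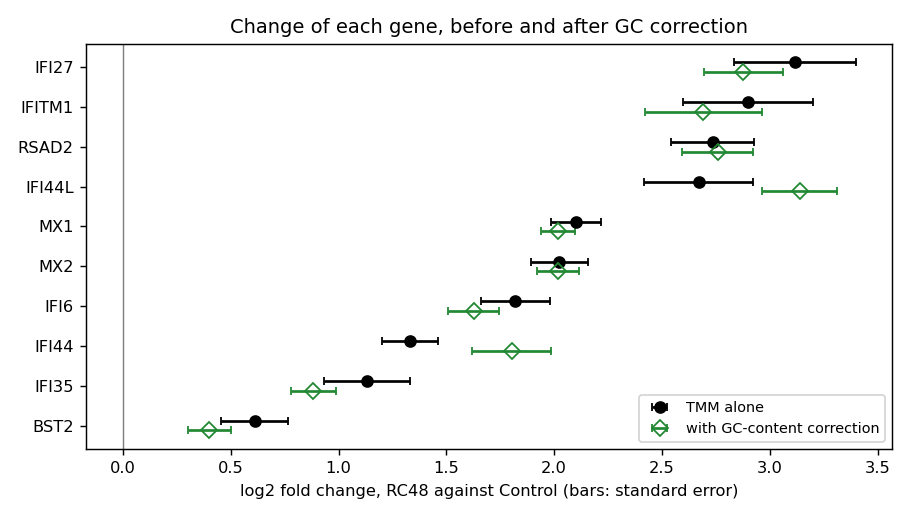
Log2 fold change of each effector in RC48 against Control with its standard error, from TMM-normalized counts (filled circles) and with the GC correction (open diamonds). The values run from 0.61 for BST2 to 3.12 for IFI27 without the correction and from 0.40 to 3.14 with it.

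The genes that carry the interferon signal had a lower median change than the effectors, a difference that was not tested. Of 23 named signalling genes, 20 were listed and 17 tested, and 4 rose and 0 fell, with a median log2 fold change of 0.53. The share called over all genes tested was 2.21%. Among ligands, IFNB1, IFNE and IFNK were not listed, and IFNL1, IFNL2 and IFNL3 had at most 2 counts in any library. The receptor chains IFNAR1 and IFNAR2 had log2 fold changes of -0.08 ± 0.23 (adjusted p = 0.822) and 0.20 ± 0.12 (adjusted p = 0.347, edgeR), and IFNAR2 passed with the GC correction at 0.35 (adjusted p = 0.0344). The receptor kinases JAK1 at 0.21 (adjusted p = 0.333) and TYK2 at 0.64 (adjusted p = 0.226) did not pass in either fit. Of the transcription factors, IRF9 rose by 1.62 ± 0.18 (adjusted p = 0.00446), from 24.5 to 75.2 CPM in the mean, and IRF7, itself induced by interferon, rose by 1.44 ± 0.20 (adjusted p = 0.0117, edgeR). STAT2 rose by 0.70 ± 0.12 (adjusted p = 0.0346, edgeR). USP18, a negative regulator at the receptor, rose by 0.93 ± 0.14 (adjusted p = 0.0157). With the GC correction, 7 signalling genes were called, against 6.83% of all genes. Leaving out Control replicate 1, 2 or 3 left 1, 1 and 0 calls (7, 6 and 7 genes at an unadjusted p under 0.05, edgeR), leaving out RC48 replicate 3 left 1, and leaving out RC48 replicate 1 or 2 gave 8 and 9. Without Control replicate 1, 2 or 3, 0.537%, 0.591% and 0.515% of all genes were called. Without RC48 replicate 1, 2 or 3, the shares were 6.82%, 28.3% and 0.706%. On all libraries, 11 signalling genes and 2499 of all 13055 genes tested had an unadjusted p under 0.05 (edgeR). DESeq2 called 6 on all libraries, against 5.7% of all genes.

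Of 30 other interferon-stimulated genes, all tested, 11 rose and 0 fell, and 26 had a positive fold change. The median log2 fold change was 0.80, and in 21 the groups did not overlap, with RC48 higher. Of all 13055 genes tested, 2.21% were called and 6710 had a positive fold change. In 17.4% of them every RC48 library lay above Control. The largest changes among the called were in EPSTI1 at 1.76, IFIT1, which binds foreign RNA caps, at 1.48, XAF1 at 1.39, OAS2, a sensor of double-stranded RNA, at 1.22 and ISG15, a ubiquitin-like protein, at 1.20. The smallest among the called were HERC6 at 0.94, PLSCR1 at 0.85 and OAS3 at 0.76. No difference between the lists was tested. The count depended on single libraries. Leaving out Control replicate 1, 2 or 3 left 0 calls each time (20 genes at an unadjusted p under 0.05 in each, edgeR) and leaving out RC48 replicate 3 left 1, while 22 and 19 were called without RC48 replicate 1 or 2. The shares of all genes called in these fits are given above with the signalling genes. On all libraries, 21 of the 30 and 2499 of all 13055 genes tested had an unadjusted p under 0.05 (edgeR). DESeq2 called 18 on all libraries, against 5.7% of all genes. With the GC correction 22 were called, against 6.83% of all genes. In the 6 fits with a library left out, 8 to 10 of the 10 effectors were called, against 0.515% of all genes without Control replicate 3 and 28.3% without RC48 replicate 2.

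**Figure D5:**
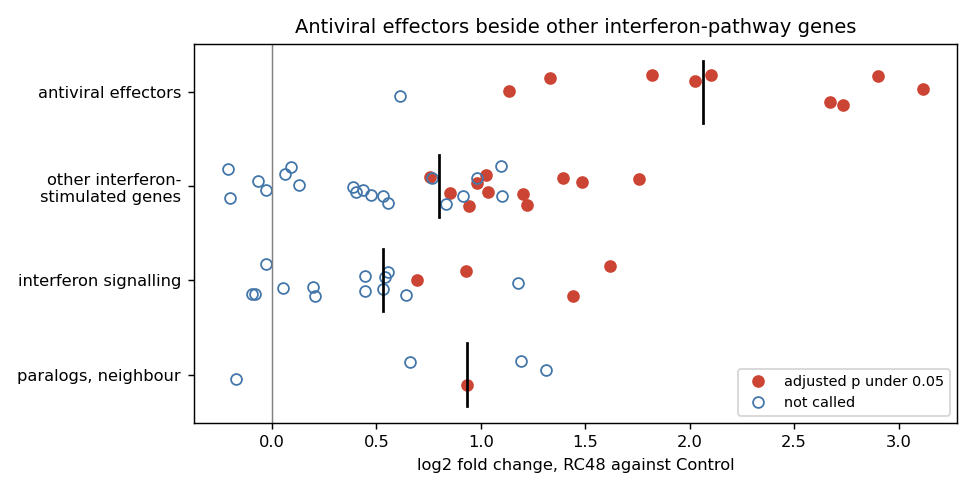
Log2 fold change of each tested gene in 4 lists, RC48 against Control; filled points passed at an adjusted p under 0.05, open points did not, and black lines are list medians. The medians are 2.06 for the effectors, 0.80 for other interferon-stimulated genes, 0.53 for signalling genes and 0.94 for the relatives and the neighbour.

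The genes outside the list whose log2 CPM over the 6 libraries was most like the mean profile of the effectors were IL32, LCN2, CXCL1, TNIP1 and PDPN, with a Pearson r of 0.9996, 0.9995, 0.998, 0.997 and 0.997 among 10168 genes that reached 10 CPM in either group's mean. The 6 libraries fall into 2 groups, so any gene with a clear difference between the groups scores high. The effectors themselves had an r of 0.914 (BST2) to 0.997 (RSAD2) with their own mean. Their own log2 fold changes ran from 1.14 (TNIP1) and 1.17 (PDPN) to 6.68 (CXCL1), below and above the effectors' median of 2.06.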

How the data were processed

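Total RNA of 6 SW780 libraries was sequenced on a BGISEQ instrument. The authors filtered reads with SOAPnuke, mapped them with Bowtie2 (hg38 in the submitters' processing notes) and deposited estimated counts per gene from RSEM, without normalization. TPM that the authors deposited, normalized for length and library size, was used for 5 libraries. For RC48 replicate 2, TPM was derived here by dividing counts by effective lengths, which the counts and TPM of the other libraries imply. For RC48 replicate 3, values derived in this way differed from those deposited by 0.0363 on the log2 scale (median absolute difference, 11982 genes). Versions and annotation are not given in the sources used here. Columns of the authors' own comparisons were not used.

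Estimated counts were rounded, filtered with filterByExpr (0.583 CPM in 3 libraries), TMM-normalized and compared by the quasi-likelihood test of edgeR over 13055 genes, without covariates, at an adjusted p of 0.05 (R 4.3.3, edgeR 4.0.16, limma 3.58.1, DESeq2 1.42.0; Python 3.11.15, numpy 2.4.6, pandas 2.3.3, scipy 1.17.1, matplotlib 3.10.9). The study's own test was limma on TPM, which is an alternative here because TPM was used as deposited in 5 of 6 libraries. Exact permutation tests were two-sided. The GC correction subtracted each library's loess trend (span 0.3) of log2 CPM on the GC content of GENCODE v29 transcripts, known for 99.4% of genes, and entered edgeR as an offset. Simulated counts were used to test the scripts. Positions come from GENCODE v29 and promoters from RefSeq GRCh38.p14. Library totals were 16453233 to 17988030 counts, and precision is lowest for genes with few counts.

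Alternatives were 18 settings chosen at the outset and 6 added later, which leave out a library under the GC correction. The genes and lists were chosen with earlier results of these data known, so counts over them are no independent evidence. Named are the 10 effectors, their relatives and the neighbour CMPK2, 10 fixed pathway genes (1 is not reported here), the called genes with the 5 largest and 3 smallest changes of each interferon list, the 5 genes most like the effectors' mean profile (log2 of CPM plus 0.5), and markers.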

Additional observations from a re-analysis of the deposited data

How the results depend on the processing

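Between 8 and 10 effectors were called under each of the 24 alternatives, and each effector kept a positive fold change in all in which it was tested. MX1, MX2, RSAD2, IFI6, IFI27, IFI44 and IFI44L passed in all 24, and IFITM1 in all 23 that tested it. The median log2 fold change of the effectors, 2.06, was 2.01 with at least 10 counts in every library (which removes IFITM1), 2.0 with library sizes alone, 1.96 with limma on log2(TPM+0.1), 1.66 and 1.76 with limma on log2(TPM+1) in 5 and 6 libraries, where the pseudocount shrinks low genes, and 2.02 with the GC correction. It was 2.02 to 2.09 with a library left out and 1.99 to 2.05 with the GC correction as well. The other interferon-stimulated genes called, 11, were 18 with DESeq2, 6 with limma on log2(TPM+1) in 6 libraries, 25 with voom and sample quality weights (24 of them upward) and 22 with the GC correction. They were 0 to 22 with a library left out (14 to 27 with the GC correction, where it was 19 without Control replicate 3 and 17 without RC48 replicate 3). The signalling genes called, 4, were 8 with limma in 5 libraries at either pseudocount, 13 with voom and 7 with the GC correction, and 0 to 9 with a library left out (4 to 10 with the GC correction). The cause of these shifts was not tested. Over all genes, 288 were called, 744 with DESeq2, 8018 with voom, 221 with limma in 6 libraries, 2894 in 5 libraries and 892 with the GC correction.

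Replicate numbers shared by the groups did not pair the libraries: the correlation of same-numbered deviations over 10976 genes was 0.0838, -0.234 and -0.0718, and no library correlated best with its own number. With the replicate number as a block, 331 genes were called, and 646 with the GC correction; 9 effectors were called in either fit. Under the block with the GC correction the effectors' median was 2.02 and 21 other interferon-stimulated genes were called. Depth limits IFITM1 most, at 5 to 13 counts in Control.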
